A study of Homo sapiens with 8 samples.

Results

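PDLIM7 and 5 related LIM proteins, PDLIM1, PDLIM2, PDLIM5, LASP1 and ZYX, were examined in MOLM-13 cells with and without knockdown of the splicing factor PTBP1. The 6 genes were selected on earlier results of the same comparison, first among them a change of the PDLIM7 3′ end, and all rows of the count table that GENCODE v44 assigns to them were taken. They hold 82 of the 254070 annotated transcripts, and 24 of the 82 had a count in at least 1 library. All 6 genes were among the 7597 genes that passed the filter on low counts, of 62639 genes in all. Because the shPTBP1 against shSCR contrast chose these genes, their values in it are a description, and no p value is given for them. Where these genes or their isoforms pass the threshold of a test, nothing is read from it.

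The MOLM-13 line was derived from human acute myeloid leukemia. The 4 shPTBP1 libraries came from cells with a dox-inducible shRNA against PTBP1, a polypyrimidine tract binding protein that can block splice sites, and the 4 shSCR libraries from cells with a scrambled shRNA. Both groups received doxycycline for 9 days, and both vectors also carry the inducible ΔLNGFR receptor and mCherry. With 1 shRNA against PTBP1 and 1 control shRNA, loss of PTBP1 and other differences between the transduced cells cannot be told apart, and the tests weigh differences against the scatter of biological replicates only.

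PDZ-LIM proteins carry a PDZ domain at the N terminus, which binds α-actinin on actin filaments, and LIM domains at the C terminus. A LIM domain is a double zinc finger that binds other proteins, among them protein kinases and receptors. PDLIM7 (Enigma), PDLIM5 (Enigma homolog), PDLIM1 (CLP36) and PDLIM2 (Mystique) therefore link actin to signaling proteins. LASP1 is an actin-binding adaptor with a LIM and an SH3 domain, and ZYX (zyxin) is a LIM protein of focal adhesions that recruits VASP to actin.

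Long-read counts totalled 1528449 to 1613342 per library. PTBP1 had 10, 15, 13 and 23 counts in the shPTBP1 libraries and 65, 90, 64 and 78 in the shSCR libraries (log2 fold change -2.26, SE 0.22, edgeR adjusted p = 7.18e-05), and each library matched its label. PTBP2, the neuronal paralog that PTBP1 represses, had 185 to 199 against 1 to 4 counts. Of 10 myeloid markers, 8 were detected with 10 or more counts in all, with LYZ, CD68 and CEBPA among them, whereas SPI1 and CD14 had 1 count each over the 8 libraries. Their summed counts were 1610 to 1845 in the shPTBP1 libraries and 1381 to 1447 in the shSCR libraries, but the markers did not move together. CSF1R had 15, 11, 10 and 9 counts in shPTBP1 and 21, 28, 21 and 20 in shSCR, with no overlap, and FLT3 had 3 to 6 against 6 to 12, whereas LYZ had 446 to 668 against 402 to 461 and CD68 625 to 709 against 463 to 554. The part of these differences in the results below was not tested. Of 13 markers of other lineages, 11 had under 10 counts in total and 7 were at 0, and the sums were 51 to 63 in either group, mostly PECAM1. A gene listed at 0 in this table is therefore not shown to be silent.

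PDLIM7 lies on chromosome 5 (chr5:177483394-177497606, hg38, minus strand), and 5 of its 16 annotated transcripts had a count. PDLIM7-202 (ENST00000355841) has 13 exons and 1712 bases and codes for 457 residues with 3 LIM domains, found by their zinc-ligand pattern at residues 282 to 332, 341 to 391 and 400 to 452. PDLIM7-201 (ENST00000355572) has 8 exons and 977 bases. It splices from the same donor to a proximal last exon of 348 bases (chr5:177490246-177490593) in place of the next distal exon of 62 bases (chr5:177489771-177489832), and its end lies 6852 bases upstream of the distal end. The predicted product has 222 residues, of which the first 190 are those of PDLIM7-202 and the last 32 are its own, and holds no LIM pattern. PDLIM7-203 (ENST00000359895) keeps the distal end and the 3 LIM domains but replaces exon 5, of 119 bases (chr5:177491807-177491925), by a shorter one of 17 bases (chr5:177491404-177491420), which leaves 423 residues, 34 fewer than PDLIM7-202. The map of the isoforms shows both places where they part.

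**Figure D1:**
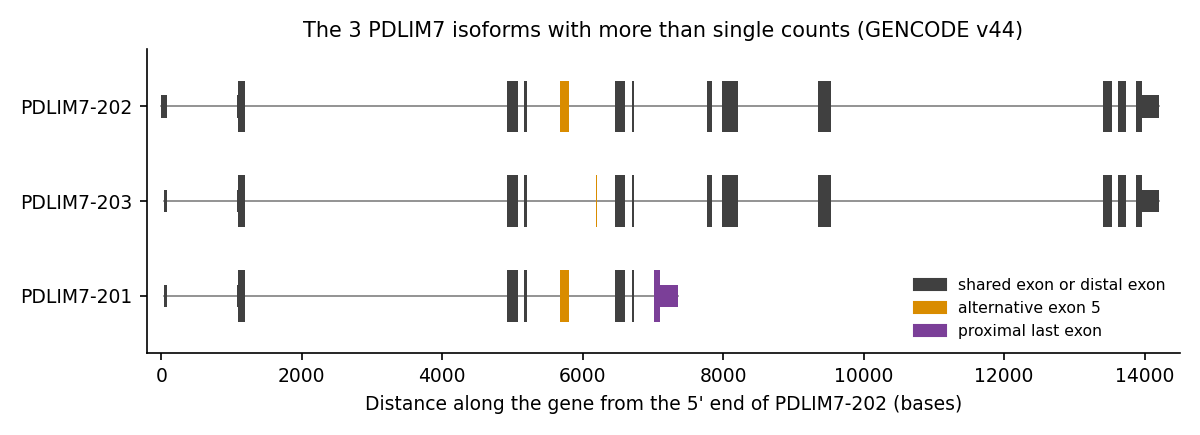
Exons of PDLIM7-202, PDLIM7-203 and PDLIM7-201 in GENCODE v44 against the distance from the 5′ end of PDLIM7-202 in bases, drawn to scale with introns as lines and coding parts as tall boxes. The isoforms differ at the alternative exon 5 (119 or 17 bases) and at the 3′ end, where PDLIM7-201 stops in a last exon of 348 bases.

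The alternative exons are shown because they are what separates the 3 isoforms, read from hg38 on the transcribed strand. The capitals mark the stop codon that closes the PDLIM7-201 reading frame, and only the coding part of its last exon (chr5:177490497-177490593) is printed.
PDLIM7-202 and PDLIM7-201, long alternative exon: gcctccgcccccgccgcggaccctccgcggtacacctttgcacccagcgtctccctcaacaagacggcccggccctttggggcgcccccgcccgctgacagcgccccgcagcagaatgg
PDLIM7-203, short alternative exon: gtgcagacccctgacaa
PDLIM7-201, coding part of the proximal last exon: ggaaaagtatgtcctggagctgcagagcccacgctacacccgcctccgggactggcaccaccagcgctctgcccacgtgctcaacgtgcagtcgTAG

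The 100 bases before each of the 4 exons are shown because PTBP1 binds pyrimidine-rich RNA. Capitals mark TCTT and CTCTCT, the motifs searched on both strands, where matches may overlap and neither motif was found on the other strand.
Before the proximal last exon, chr5:177490594-177490693: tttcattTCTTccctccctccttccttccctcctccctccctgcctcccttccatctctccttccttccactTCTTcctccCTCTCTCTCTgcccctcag
Before the distal exon, chr5:177489833-177489932: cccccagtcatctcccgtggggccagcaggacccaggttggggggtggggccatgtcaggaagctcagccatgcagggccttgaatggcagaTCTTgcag
Before the short alternative exon, chr5:177491421-177491520: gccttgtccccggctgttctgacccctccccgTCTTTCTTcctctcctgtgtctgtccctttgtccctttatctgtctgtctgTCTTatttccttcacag
Before the long alternative exon, chr5:177491926-177492025: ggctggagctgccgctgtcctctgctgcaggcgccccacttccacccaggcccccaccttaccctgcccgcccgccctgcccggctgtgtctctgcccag

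The window before the proximal last exon was 93.0% pyrimidine with 2 TCTT and 3 overlapping CTCTCT matches. Among 86315 acceptors of protein-coding transcripts of the genes tested, the median window was 55.0% pyrimidine, 64.51% held TCTT and 7.81% held CTCTCT. Only 6 windows, this one included, were at least as pyrimidine-rich, and 0.43% held at least 3 CTCTCT. The window before the short alternative exon was 80.0% pyrimidine (0.19% of windows were at least as rich) with 3 TCTT (10.37% held as many). The competing windows were 67.0% pyrimidine before the long alternative exon and 46.0% before the distal exon, and 91.54% of all windows were at least as rich as the last of these. Thus the acceptors of the proximal last exon and of the short exon were the richest and the second richest in pyrimidines of the 16 distinct acceptors of protein-coding PDLIM7 transcripts, whose median was 57.0%. The richest windows of the other members were lower, with 77.0% for PDLIM5, 75.0% for PDLIM2, 67.0% for LASP1, 66.0% for ZYX and 62.0% for PDLIM1. These matches describe letters in the genome and are not measured binding sites. An AATAAA hexamer, the usual signal for polyadenylation, began 20 bases before the end of PDLIM7-201 and 22 bases before that of PDLIM7-202. Of 34249 annotated ends of such transcripts, 39.5% had AATAAA or ATTAAA in their last 40 bases.

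PDLIM7-202, with the LIM domains and the long exon, had 133, 155, 126 and 144 counts in the shSCR libraries and 51, 52, 59 and 49 in the shPTBP1 libraries. These were 88.7%, 83.8%, 88.7% and 87.3% of all PDLIM7 counts in shSCR and 38.9%, 49.1%, 43.7% and 37.4% in shPTBP1. The highest shPTBP1 library was far under the lowest shSCR library, and the mean share was 87.1% ± 2.32 (SD, n = 4) in shSCR against 42.3% ± 5.26 (SD, n = 4) in shPTBP1. The difference of -44.8 percentage points ranked 6 by size among the 5464 transcripts, of 2163 genes, that entered the isoform test. Since the PDLIM7 change chose the members, nothing is read from this rank.

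PDLIM7-201, the short isoform without LIM domains, had 10, 16, 4 and 12 counts in shSCR and 53, 28, 49 and 55 in shPTBP1. Its share was 6.67%, 8.65%, 2.82% and 7.27% in shSCR and 40.5%, 26.4%, 36.3% and 42.0% in shPTBP1. The groups did not overlap, and shPTBP1 replicate 2 was the lowest of its group. The mean share was 6.35% ± 2.5 (SD, n = 4) in shSCR and 36.3% ± 7.01 (SD, n = 4) in shPTBP1, a difference of 29.9 percentage points.

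PDLIM7-203, with the short alternative exon and the LIM domains, had 5, 12, 11 and 8 counts in shSCR and 27, 24, 26 and 26 in shPTBP1. In shares, the shSCR libraries had 3.33%, 6.49%, 7.75% and 4.85%, and the shPTBP1 libraries 20.6%, 22.6%, 19.3% and 19.8%. Here again the groups did not overlap, with means of 5.6% ± 1.92 (SD, n = 4) and 20.6% ± 1.48 (SD, n = 4). The other transcripts with a count, PDLIM7-206 (a retained intron) and PDLIM7-207 (a nonsense-mediated decay transcript), never exceeded 1 count in a library, and the 3 main isoforms held 98.1% to 100% of the PDLIM7 counts.

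**Figure D2:**
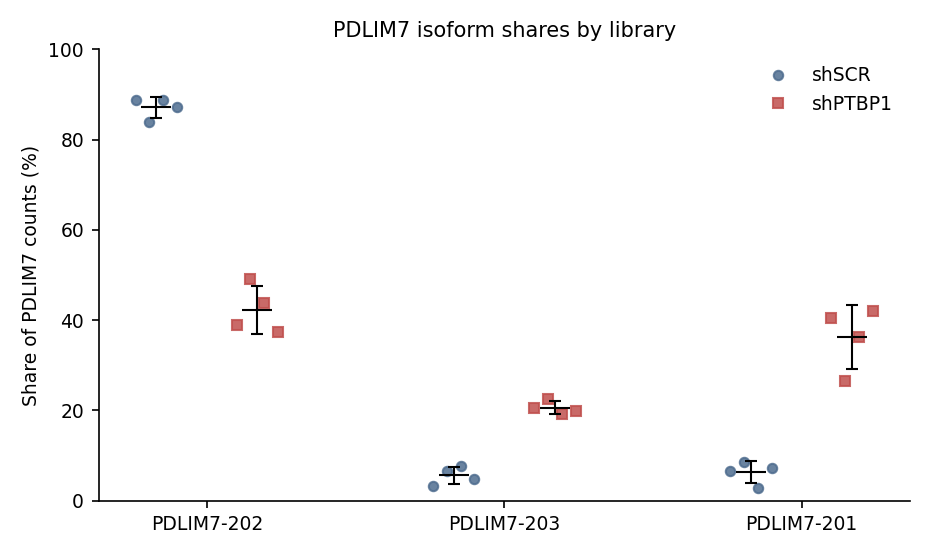
Share of PDLIM7 counts in percent for each isoform, with circles for the 4 shSCR and squares for the 4 shPTBP1 libraries, and the mean with SD as bars. PDLIM7-202 is at 83.8% to 88.7% in shSCR and 37.4% to 49.1% in shPTBP1, whereas PDLIM7-203 and PDLIM7-201 are higher in every shPTBP1 library.

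The 3 isoforms were the only isoforms of the members that entered the isoform test, and edgeR's diffSpliceDGE called 3 of 3 (adjusted p under 0.05 and a change of at least 10 percentage points). Over all transcripts tested 1.12% were called, and 10.7% had shares whose groups did not overlap. Since the PDLIM7 change chose the members, nothing is read from the difference between these shares. For this and every other bulk value, fewer cells with a transcript and less of it per cell cannot be told apart.

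The 2 choices in the gene were also described separately. Among counts with the long exon (PDLIM7-201 and PDLIM7-202), the proximal last exon took 6.99%, 9.36%, 3.08% and 7.69% in shSCR and 51.0%, 35.0%, 45.4% and 52.9% in shPTBP1. Among counts with the distal end (PDLIM7-202 and PDLIM7-203), the short exon took 3.62%, 7.19%, 8.03% and 5.26% in shSCR and 34.6%, 31.6%, 30.6% and 34.7% in shPTBP1. Each choice thus differed with no overlap between groups, with means of 6.78% ± 2.66 and 46.1% ± 8.03 for the proximal end and of 6.03% ± 1.98 and 32.9% ± 2.09 for the short exon (SD, n = 4 each). None of the 5 counted isoforms has both the short exon and the proximal end. The counts cover annotated transcripts only, so this does not show that such RNA was absent. Reads cut short at their 5′ end do not reach the alternative exon, and how StringTie split them between PDLIM7-202 and PDLIM7-203 is not given in the sources used here.

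In absolute terms, PDLIM7-202 was at 89.2 ± 7.81 CPM in shSCR and 34.2 ± 3.33 in shPTBP1 (CPM, TMM-normalized counts per 1000000 counts, SD, n = 4), a ratio of 0.383. PDLIM7-201 was at 6.67 ± 3.15 and 29.9 ± 7.68 CPM, a ratio of 4.48, and PDLIM7-203 was at 5.8 ± 2.13 and 16.7 ± 0.587 CPM, a ratio of 2.88. The isoforms that code for LIM domains together had 84.8, 106, 91.4 and 97.5 CPM in shSCR and 49.3, 50.2, 56.0 and 48.0 CPM in shPTBP1. Their level was lower in each shPTBP1 library than in any shSCR library, with a ratio of means of 0.536.

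At the gene level, PDLIM7 had 150, 185, 142 and 165 counts in shSCR and 131, 106, 135 and 131 in shPTBP1. These are 92.2, 118, 94.7 and 106 CPM against 82.9, 70.0, 88.9 and 83.9 CPM, and the groups did not overlap. The log2 fold change was -0.33 (SE 0.11), so the sum over isoforms moved less than any of the 3 isoforms. PDLIM7 is overlapped on the other strand by PDLIM7-AS1, which was listed at 0 in all libraries, and whether the counting used strand is not given in the sources used here.

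PDLIM1, which links α-actinin to stress fibers, was the most abundant member. It had 936, 864, 809 and 892 counts in shSCR and 859, 823, 841 and 786 in shPTBP1, and the groups overlapped. The log2 fold change was -0.06 (SE 0.06). PDLIM1-201 held 99.5% or more of its counts in every library.

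PDLIM2, an adaptor that also promotes degradation of RELA and STAT4, had 34, 30, 20 and 20 counts in shSCR and 17, 24, 21 and 24 in shPTBP1. The log2 fold change was -0.25 (SE 0.23), and the groups overlapped. PDLIM2-207 held 88.5% ± 6.3 of the counts in shSCR and 90.0% ± 7.41 in shPTBP1, and PDLIM2-205, which codes for a protein of the same 352 residues, held 11.5% ± 6.3 and 5.64% ± 5.2 (SD, n = 4). At these counts 1 read is several percent of the gene, and its isoforms did not enter the isoform test. PDLIM2 is overlapped on the same strand by another protein-coding gene, ENSG00000248235, which was listed at 0.

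PDLIM5, which tethers protein kinase C isoforms to actin structures, had 28, 24, 30 and 25 counts in shSCR and 30, 14, 34 and 24 in shPTBP1. The groups overlapped, and the log2 fold change was -0.05 (SE 0.24). PDLIM5-201, with 596 residues and 3 LIM domains, held 82.5% ± 4.66 of the counts in shSCR and 81.4% ± 13.5 in shPTBP1 (SD, n = 4). PDLIM5-203, a product of 136 residues without a LIM pattern, had 2, 3, 4 and 3 counts in shSCR and 0, 3, 3 and 2 in shPTBP1. PDLIM5 thus had an isoform without LIM domains in 7 of 8 libraries, with group means of 11.2% ± 2.79 and 9.65% ± 8.84 that differed by less than the spread between replicates.

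LASP1 had 181, 234, 171 and 189 counts in shSCR and 208, 155, 181 and 181 in shPTBP1, with a log2 fold change of -0.08 (SE 0.11). The groups overlapped, and LASP1-201 held 97.8% or more of the counts in every library. ZYX had 52, 42, 40 and 44 counts in shSCR and 52, 42, 34 and 47 in shPTBP1, with a log2 fold change of -0.01 (SE 0.16). ZYX-201 held 93.6% to 100% of the counts, and all 3 ZYX isoforms with a count code for 3 LIM domains. The 3′ end of ZYX overlaps EPHA1 on the other strand, which had 0 to 7 counts.

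**Figure D3:**
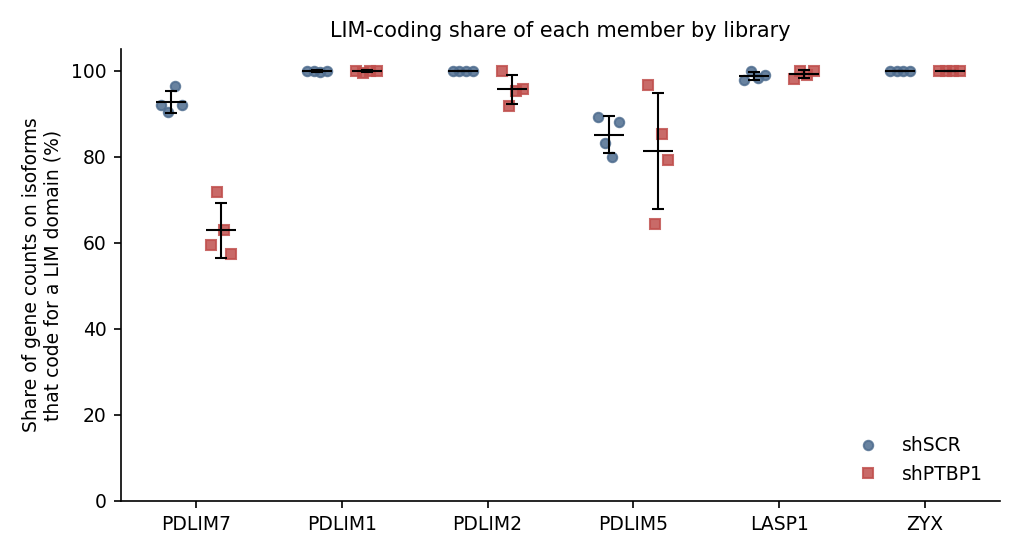
Share of each member's counts, in percent, on isoforms whose coding sequence holds a LIM pattern, with circles for shSCR, squares for shPTBP1 and mean with SD as bars (n = 4). PDLIM7 is the member whose groups do not overlap, at 90.3% to 96.5% in shSCR and 57.3% to 71.7% in shPTBP1.

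Over the family, the share of counts on LIM-coding isoforms separated the groups for PDLIM7 alone among the 6 members. It was 92.7% ± 2.65 in shSCR and 62.9% ± 6.34 in shPTBP1 for PDLIM7 (SD, n = 4). For PDLIM7 this restates the change of PDLIM7-201, part of the change that chose the members, so nothing is read from the separation. Among all isoform shares tested, 10.7% had groups that did not overlap. PDLIM1, LASP1 and ZYX each had only 1 isoform with at least 5% of the counts. PDLIM5 ranged from 80.0% to 89.3% in shSCR and from 64.3% to 96.7% in shPTBP1. PDLIM2 was at 100% in all shSCR libraries and at 91.7% to 100% in shPTBP1, where PDLIM2-220, a retained intron, took 0, 2, 1 and 1 counts. PDLIM1, LASP1 and ZYX were at 97.8% or above in each library. Differences between members in this share were not tested.

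At the gene level, edgeR called 0 of the 6 members, and DESeq2 also called 0, with no adjusted p for PDLIM2 and PDLIM5. With an unadjusted p under 0.05, edgeR listed 1 of 6, PDLIM7, beside 19.2% of all genes tested, and nothing is read from this, since the contrast chose PDLIM7. Over all genes tested 5.54% were called, 3.19% lower and 2.36% higher. The groups did not overlap for 1 of 6 members and for 12.7% of all genes tested. All 6 log2 fold changes were below 0, as were 3802 of the 7597 genes tested, with a median of -0.07 beside -0.0001 over all genes tested. Those of PDLIM5, LASP1 and ZYX were smaller than their SE. They were above 0 when certain single libraries were left out, reaching 0.14, 0.02 and 0.09.

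**Figure D4:**
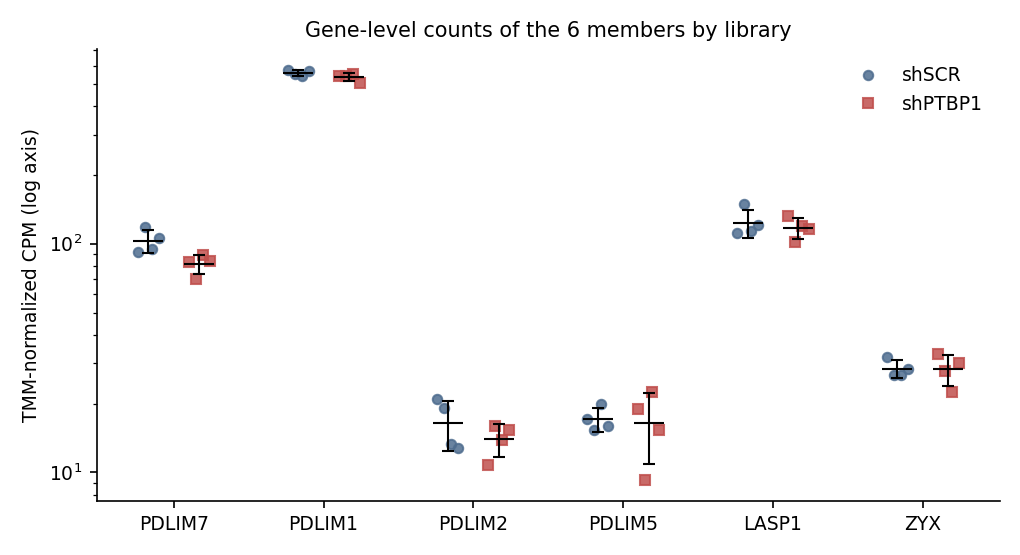
TMM-normalized CPM of the 6 members on a log axis, with circles for the 4 shSCR and squares for the 4 shPTBP1 libraries, and mean with SD as bars. PDLIM7 is at 92.2 to 118 CPM in shSCR and 70.0 to 88.9 in shPTBP1, and the groups of the other 5 genes overlap.

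Levels were compared between members per kilobase of transcript. In shSCR, PDLIM1 had 391 ± 12 CPM per kilobase, PDLIM7 63.3 ± 8.16, LASP1 31.8 ± 4.34, ZYX 12.8 ± 1.12, PDLIM2 10.6 ± 2.6 and PDLIM5 4.46 ± 0.844 (SD, n = 4). The order was the same in shPTBP1, from 375 ± 15.8 for PDLIM1 to 5.14 ± 0.879 for PDLIM5. Of the neighbours in this order, ZYX (12 to 14.4) and PDLIM2 (8.18 to 13.4) overlapped in shSCR, and the other neighbours did not. On this scale PDLIM7 was at 61.6 ± 7.76 in shPTBP1, and its groups overlapped. The scale divides by length, and PDLIM7-201 is the shortest of the 3 isoforms. The order depends on this division. In undivided CPM in shSCR, LASP1 (124 ± 17.3) was above PDLIM7 (103 ± 11.7), with overlap. Likewise PDLIM5 (17.1 ± 2.07) was above PDLIM2 (16.5 ± 4.06), also with overlap (SD, n = 4). The remaining PDZ-LIM genes of muscle, PDLIM3 and LDB3, were listed at 0 in all libraries, where 3 counts would be 1.86 to 1.96 CPM, and PDLIM4 had 2 counts in 1 shSCR library.

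By the root mean square difference of centred log2 CPM over the 8 libraries, the genes whose levels were most like those of PDLIM7 were PDIA3 (0.0771), PEA15 (0.0811) and PHF14 (0.0842), among 7596 genes. Their log2 fold changes were -0.37, -0.25 and -0.25. For the PDLIM7-202 share, the most alike of 5459 isoforms of other genes were PICALM-219 (6.23 percentage points), NLRP3-205 (6.61) and SEH1L-201 (7.3). PICALM-219 went from 67.2% ± 5.38 of PICALM counts in shSCR to 30.9% ± 5.88 in shPTBP1, NLRP3-205 from 58.7% ± 3.53 to 25.6% ± 4.89, and SEH1L-201 from 93.3% ± 1.94 to 60.9% ± 1.67 (SD, n = 4). These likenesses are over libraries that share the contrast and carry no test.

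The other LIM genes of actin and adhesions, among them relatives of paxillin, zyxin, the LIM kinases and PINCH, held 39 genes, of which 13 were tested. CRIP1, a small cysteine-rich LIM protein, was lower, and 12 did not pass the test. This is 1 of 13, beside 3.19% called lower over all genes tested. CRIP1 had 1152, 1105, 1322 and 1251 CPM in shSCR and 903, 1042, 1040.1 and 1030.2 CPM in shPTBP1, with no overlap (log2 fold change -0.27, SE 0.07, edgeR adjusted p = 0.0421). The call was lost when any library other than shSCR replicate 2 was left out, with adjusted p values of 0.0565 to 0.113. The median log2 fold change of the list was -0.23 beside -0.0001 over all genes tested, and the range was -0.46 for CSRP2 to 0.15 for LIMA1.

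Among the partners of these proteins at actin and integrin adhesions, 3 of 21 genes tested (35 listed) were lower and 1 was higher, and 17 did not pass. Over all genes tested, 3.19% were called lower and 2.36% higher. With an unadjusted edgeR p under 0.05 there were 7 of 21, beside 19.2% of all genes tested. The median log2 fold change was -0.07 beside -0.0001 over all genes tested. TLN1, talin, which couples integrins to actin, had 74.4, 57.9, 61.4 and 75.7 CPM in shSCR and 39.9, 49.5, 44.8 and 48.0 in shPTBP1 (log2 fold change -0.57, SE 0.12, edgeR adjusted p = 0.0189). The groups did not overlap.

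ITGB2, the β subunit of leukocyte integrins, had 138, 201, 140 and 174 CPM in shSCR and 135, 91.2, 88.2 and 79.4 in shPTBP1, where replicate 1 was just under the lowest shSCR library (log2 fold change -0.73, SE 0.16, edgeR adjusted p = 0.0193). NEDD9, an adhesion docking protein, had 18, 13, 12 and 16 counts in shSCR and 4, 8, 3 and 4 in shPTBP1 (log2 fold change -1.59, SE 0.36, edgeR adjusted p = 0.0227), and DESeq2 gave it no adjusted p. PTK2B, the focal adhesion kinase relative PYK2, was the gene that rose, from 55.9, 49.0, 55.3 and 43.6 CPM to 75.9, 74.7, 86.9 and 82.0 (log2 fold change 0.65, SE 0.11, edgeR adjusted p = 0.00416). Of the 3 lower calls, 0 were kept by edgeR without shPTBP1 replicate 3 or without shSCR replicate 4, and 1 (TLN1) without shPTBP1 replicate 4, whereas DESeq2 on all libraries called 2 lower. ACTN1, an α-actinin, was at 102 ± 7.0 CPM in shSCR and 81.2 ± 6.92 in shPTBP1 and did not pass (log2 fold change -0.32, edgeR adjusted p = 0.0632). ACTN4, another α-actinin of the same list, had a log2 fold change of -0.02 (edgeR adjusted p = 0.983). Both are named here after their values were seen.

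Of the kinases, receptors and other proteins known to bind PDZ-LIM proteins, 7 of 19 listed were tested, and edgeR called 0. DESeq2 also called 0, but it gave no adjusted p for RET, PRKCD, SYK and RELA and so could not call them. With an unadjusted p under 0.05, which 19.2% of all genes tested had, there were 2, PRKCA and PRKCD, at log2 fold changes of -0.35 and 0.46 with edgeR adjusted p values of 0.225 and 0.22. RET, a receptor bound by PDLIM7, was at 18.0 ± 6.23 CPM in shSCR and 21.5 ± 5.93 in shPTBP1 (log2 fold change 0.25, edgeR adjusted p = 0.678). PRKCA, PRKCD and RET are also named after their values were seen. The median of the list was -0.11. Of 17 nuclear LIM genes and their cofactors, 2 were tested, LMO4 and LDB1, and 0 were called by edgeR or at an unadjusted edgeR p under 0.05. DESeq2 gave no adjusted p for either gene, so it could not call them.

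**Figure D5:**
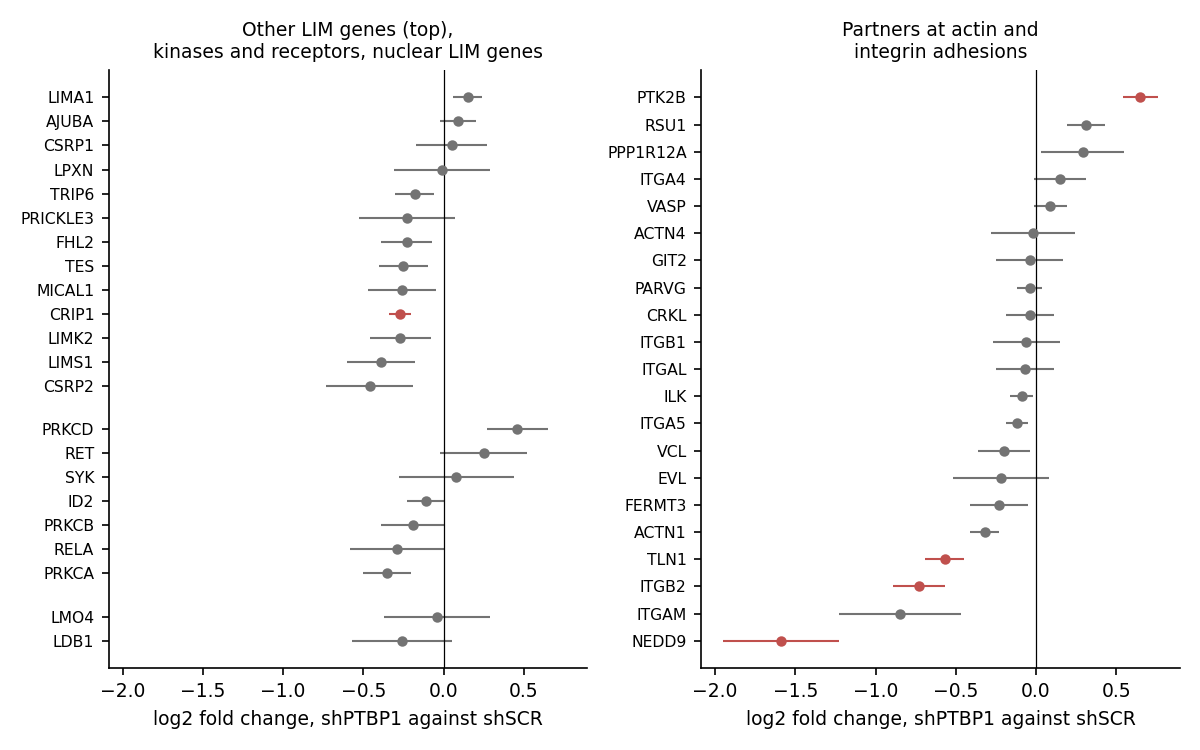
log2 fold change of shPTBP1 against shSCR with its SE for each tested gene of the 4 lists, in which red points are genes called by edgeR (adjusted p under 0.05) and gray points are not. CRIP1 is the called gene of the left panel, and in the right panel NEDD9, ITGB2 and TLN1 are called lower and PTK2B higher.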

How the data were processed

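The authors prepared nanopore cDNA libraries, mapped reads to hg38 with minimap2, filtered on mapping quality and used StringTie to count transcripts, and they deposited whole-number counts without normalization. Tool versions are not given in the sources used here. A second deposited table held the same counts as CPM and was not used. Transcripts were matched to GENCODE v44 by identifier without version (252562 of 254070) and summed per gene. Genes passing filterByExpr were tested with edgeR 4.0.16 (quasi-likelihood, TMM, group as the term, Benjamini-Hochberg adjusted p under 0.05), and isoforms with diffSpliceDGE and a share change of at least 10 percentage points. SE is the log2 fold change divided by the root of F. Shares are transcript counts over gene counts. The members and lists were chosen with earlier results of these data known. Lists were written from general knowledge, and 1 gene of the adhesion partners is not reported here. Named were all members, isoforms with at least 5% of a member's counts in either group, called list genes, PTBP1, PTBP2, the other PDZ-LIM genes and the 3 closest patterns. Alternatives were DESeq2 1.42.0, its size factors, no filter, protein-coding transcripts, limma 3.58.1 diffSplice, other thresholds, a replicate block and each library left out. The alternatives for PDLIM7-203, the LIM-coding share, PTBP1 and PTBP2 were added after seeing the data. Totals were 1528449 to 1613342 counts, and limits for 0 (3 counts) cover counting error only. The tests were tried on simulated data. R 4.3.3, Python 3.11.15, numpy 2.4.6, pandas 2.3.3 and matplotlib 3.10.9 were used.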

Additional observations from a re-analysis of the deposited data

Results flagged for a closer look

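CRIP1 had 903 normalized CPM in shPTBP1 replicate 1, apart from the other shPTBP1 libraries, which had 1030.2 to 1042. It was the 1 group flagged of 60 groups of 4 libraries examined (the gap to the nearest library was 0.916 of the range, above Dixon's critical value for 4 samples), and chance flags about 1 in 20 groups.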

How the results depend on the processing

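The PDLIM7 isoform shares kept their direction under each alternative. With counts divided by transcript length the change was -49.8 percentage points for PDLIM7-202, 38.5 for PDLIM7-201, 11.6 for PDLIM7-203 and -38.2 for the LIM-coding share, and leaving out single libraries gave -47.1 to -43.2 for PDLIM7-202 and 28.0 to 33.2 for PDLIM7-201. All 3 isoforms were called under each alternative except a minimum change of 20 points, which left 2, and 0 members were called at the gene level throughout. Since the PDLIM7 change chose the members, nothing is read from these calls. Over all transcripts, 154 isoforms were called by limma's diffSplice, 28 at 20 points and 39 to 55 with single libraries left out (39 without shPTBP1 replicate 4), beside 61. Over all genes, 242 were lower and 179 higher, DESeq2 called 154 lower and 164 higher, so that more genes were higher than lower, and leaving out single libraries gave 107 to 190 lower and 77 to 168 higher (fewest without shPTBP1 replicate 3). Among other LIM genes, 0 to 1 were lower with single libraries left out. Among adhesion partners, 0 to 3 were lower with single libraries left out (0 without shPTBP1 replicate 3 or shSCR replicate 4) and 2 with DESeq2, which gave no adjusted p for NEDD9. The replicate numbers did not pair the libraries (correlations -0.0328 to 0.00889). With a replicate block, 186 genes were lower, 137 higher, 50 isoforms were called, the PDLIM7-202 change was -44.8, and NEDD9 was no longer called (edgeR adjusted p = 0.0606). With single libraries left out, calls were lost for TLN1 (without shPTBP1 replicate 3, adjusted p = 0.0626, and shSCR replicate 4, 0.0593), ITGB2 (5 of 8, up to 0.0758) and NEDD9 (5 of 8, up to 0.0812). Depth limits the isoforms of PDLIM2, PDLIM5 and ZYX, with 14 to 52 counts per library.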

Other observations

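PTK2B, the partner gene that rose, also changed in isoform share. PTK2B-201 (4074 bases) held 54.2% ± 4.42 of PTK2B counts in shSCR and 30.3% ± 3.11 in shPTBP1 (diffSpliceDGE of edgeR, adjusted p = 0.00986), and PTK2B-205 (3941 bases) held 42.2% ± 3.76 and 67.1% ± 2.78 (adjusted p = 0.0471; SD, n = 4). The groups did not overlap for either isoform. They were named after their values were seen. Over all transcripts tested, 1.12% were called and 10.7% had shares whose groups did not overlap. Whether the PTK2B isoform calls hold under other settings is not given here.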
